A study of Mus musculus with 66 samples.

Results

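Genes of myoblast fusion and of the muscle cell membrane, 10 in number, were followed through the mRNA-Seq of C2C12 cells, a mouse myoblast line that stops dividing and fuses into myotubes when serum is withdrawn. The genes were chosen by name, as known parts of adhesion, fusion and membrane upkeep in muscle: Tmem8c, Cdh15, Cdh2, Ncam1, Cav3, Dysf, Adam12, Jam3, Cd9 and Dock1. They are 10 of the 22489 genes in the expression table, which holds 20 libraries. The libraries came from 10 lines, each with 1 growth and 1 differentiated library. Growth cells (G) were kept in 20% fetal bovine serum, and differentiated cells (D) were taken 48 h after a change to 2% horse serum. WT cells carried no transgene, and the other 9 lines carried a doxycycline-inducible H3 histone with GFP at its N terminus, introduced with a transposon vector and sorted for GFP. In 3 of them the histone was of the H3.1/H3.2 type (H3.1, H3.2 and H3t), and in 6 it was of the H3.3 type (H3mm7, H3mm11, H3mm12, H3mm13, H3mm16 and H3.3 itself). The columns named H3mmT were taken as the H3t line, since no other line name fits them. Each line was represented by 1 library per state, so a line is the unit of replication and the effect of any 1 histone cannot be told apart from the effect of that line.

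Skeletal muscle fibres form when mononucleated myoblasts recognise each other, adhere and merge their plasma membranes. Cadherins, NCAM and junctional adhesion molecules hold the cells together, Rac signalling through Dock1 remodels the actin cortex beneath the contact, and the membrane protein myomaker, here listed as Tmem8c, works with the small protein myomixer, here Gm7325, to merge the membranes. Caveolin-3 and dysferlin, the products of Cav3 and Dysf, serve the membrane of the formed fibre, in caveolae and in membrane repair, and mutations in both cause muscle disease.

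Differentiated cells carried the myocyte markers of their label, while the myoblast list did not mark growth cells apart. The summed FPKM of 5 myocyte markers (Myog, Ckm, Myh3, Acta1 and Mef2c) was between 3.4 and 135.8 in growth libraries and between 1944 and 9825 in differentiated libraries, with no overlap. The summed level of 4 myoblast markers was 233.3 to 634.2 FPKM in growth and 464.0 to 1400 FPKM in differentiated libraries. Pax7 was below 1 FPKM in all 20 libraries. Of the others, Des was called higher in differentiated cells (1.395 ± 0.213), and Myod1 and Myf5 were not called. Of 4 fibroblast markers, only Dcn reached a mean of 1 FPKM, and the summed level of the list was 0.461 to 5.23 FPKM in growth and 10.1 to 180 FPKM in differentiated libraries. Pdgfra, Lum and Thy1 stayed below 1 FPKM in all libraries. The summed level of 4 adipocyte markers was 15.2 to 34.9 FPKM in growth and 7.14 to 18.1 FPKM in differentiated libraries, with Adipoq and Plin1 below 1 FPKM throughout. That of 4 endothelial markers was 0.226 to 7.67 and 0.0179 to 1.98 FPKM, and only Cdh5 of them reached a mean of 1 FPKM and was called, on the lower side (-1.02 ± 0.27). The part of such cells in the results was not tested. The sum of FPKM over all genes was 409319 and 465247 in the WT libraries and 583613 to 894105 in the GFP-H3 libraries. WT stood apart in this sum. By median ratio over genes above 1 FPKM in every library, the log2 scale factors were 0.05 and 0.059 in WT. They ran from -0.057 (H3.3, growth) to 0.041 (H3t, growth) in the GFP-H3 libraries.

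On differentiation, 5 of the 10 genes rose: Tmem8c, Cav3, Dysf, Ncam1 and Cdh15. In each of them the lowest differentiated library lay above the highest growth library, and all 10 lines moved upward. A gene was called when its Benjamini-Hochberg adjusted p, from limma across all genes, was below 0.05 and its difference on the log2(FPKM + 1) scale was at least 1. By that rule 8.87% of the 10954 genes tested were called higher and 8.41% lower. None of the 10 genes was called lower, while 3 were below an adjusted p of 0.05 without reaching a difference of 1: Adam12 and Dock1 on the lower side and Jam3 on the higher side. By adjusted p alone, 6 of the 10 genes were on the higher side, where 30.5% of all genes were, and 2 on the lower side, where 28.1% were. States without overlap and with the higher values in differentiated cells were seen in 8.85% of all genes. The median difference over the 10 genes was 1.005, against 0.038 over all genes tested.

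**Figure D1:**
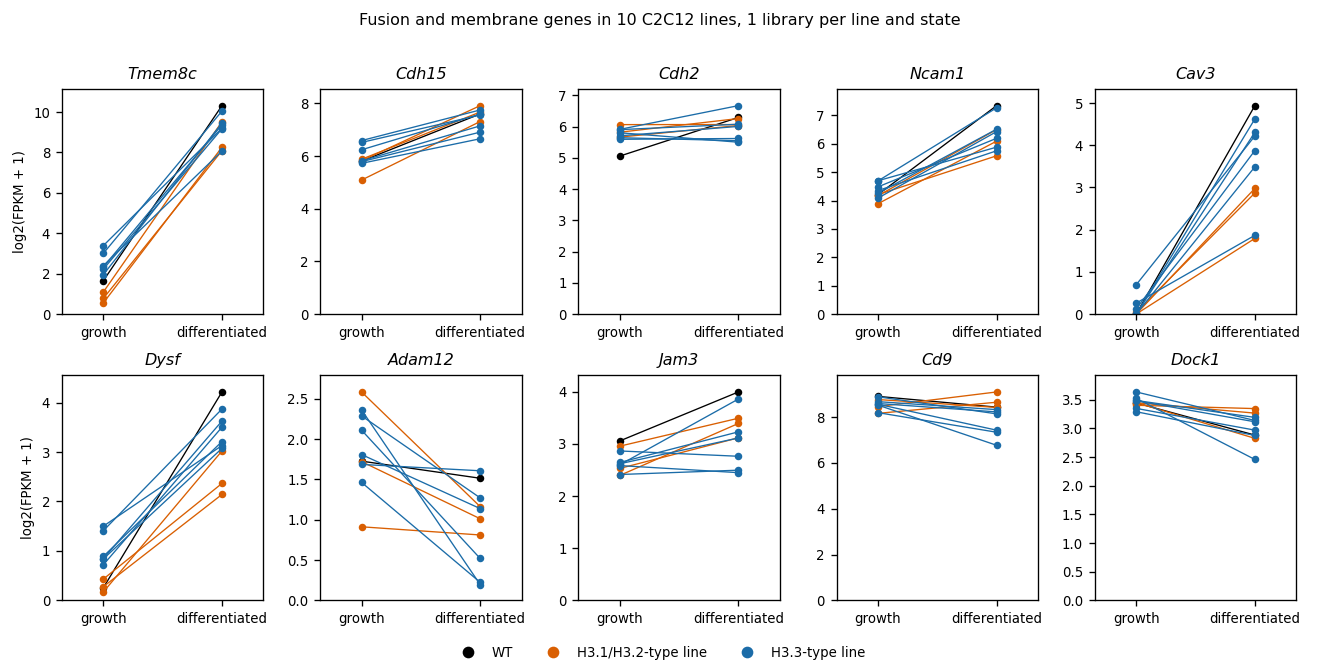
Each panel plots 1 gene as log2(FPKM + 1) on the vertical axis in growth and differentiated cells, with a line joining the libraries of 1 C2C12 line and colours for WT, H3.1/H3.2-type and H3.3-type lines. In Tmem8c, Cdh15, Ncam1, Cav3 and Dysf all 10 lines go up, and in Adam12 and Dock1 all 10 go down.

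The fusogen Tmem8c showed the largest change of the 10 genes. Its level in growth cells was 0.464 FPKM at the lowest (H3.1), 3.27 at the median and 9.47 at the highest (H3mm7), and in differentiated cells 268.8 (H3mm11), 624.7 and 1278 FPKM (WT). The lowest differentiated library was thus far above every growth library. The difference was 7.22 ± 0.36 (SE) on the log2(FPKM + 1) scale, with an adjusted p of 9.81e-13. Within lines the ratio of differentiated to growth FPKM ranged from 62.0 in H3mm7 to 658 in H3.1, with a median of 205, and these same lines had the highest and the lowest growth level. Its partner Gm7325 moved from a median of 0.516 to 164.3 FPKM, a difference of 6.77 ± 0.27 (adjusted p = 2.05e-13). Tmem8c exceeded Gm7325 in FPKM in all 20 libraries, by a median ratio of 5.67 in growth and 3.19 in differentiated cells. Measurements of bulk RNA cannot tell apart a larger share of cells that express a gene and more RNA in each such cell.

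Among the adhesion genes, Ncam1, the neural cell adhesion molecule, rose and was followed by Cdh15, which encodes M-cadherin. Ncam1 had 13.8 (H3.1), 17.9 and 25.0 FPKM (H3mm7) as its lowest, median and highest values in growth cells, and 46.8 (H3t), 78.9 and 161.9 FPKM (WT) in differentiated cells. The states did not overlap, and the difference was 2.05 ± 0.19 (adjusted p = 1.01e-08). Cdh15 was already abundant in growth cells, with 33.0 (H3t), 55.4 and 95.2 FPKM (H3mm12), and reached 99.9 (H3mm11), 189.9 and 240.3 FPKM (H3.1) after differentiation. The states of Cdh15 came close to each other but did not overlap, with a difference of 1.49 ± 0.18 (adjusted p = 3.95e-07) and ratios of 1.93 to 4.78 within lines.

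Cdh2, which encodes N-cadherin, did not pass the test. It had 32.2 (WT), 52.9 and 65.8 FPKM (H3t) in growth cells and 44.2 (H3mm11), 65.2 and 100.8 FPKM (H3mm12) in differentiated cells, so the states overlapped widely. It was higher after differentiation in 8 of 10 lines, with a difference of 0.29 and a 95% interval from -0.005 to 0.586 (adjusted p = 0.0854). As a description, the Cdh15 to Cdh2 ratio of FPKM had a median of 1.12 in growth cells, above 1 in 7 of 10 libraries, and of 2.45 in differentiated cells, above 1 in all 10. The mesenchymal cadherin Cdh11 was below 1 FPKM in every library. Jam3, a junctional adhesion molecule, had 4.26 (H3.2), 5.11 and 7.33 FPKM (WT) in growth and 4.46 (H3mm11), 8.04 and 14.97 FPKM (WT) in differentiated cells. It was higher in 8 of 10 lines, by 0.52 ± 0.17 (adjusted p = 0.0123), which was below the size required for a call.

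The genes of the mature fibre membrane started from almost nothing. Cav3 was listed at 0 in 6 of the 10 growth libraries and was at most 0.619 FPKM (H3.3) in the others. In differentiated cells it had 2.46 (H3t), 11.9 and 29.7 FPKM (WT), and every differentiated library lay above every growth library. The difference was 3.38 ± 0.33 (adjusted p = 2.01e-08). Because the growth level was so low, the addition of 1 FPKM understates the change, and with 0.1 FPKM added the difference was 6.08. Dysf had 0.125 (H3.2), 0.717 and 1.83 FPKM (H3mm7) in growth cells and 3.41 (H3t), 8.02 and 17.6 FPKM (WT) in differentiated cells. It rose by 2.48 ± 0.23 (adjusted p = 1.01e-08), with ratios of 4.25 to 90.9 within lines.

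Both have a widely expressed relative, and neither relative rose. Cav1, the caveolin of many cell types, fell by 2.04 on the log2 scale (SE 0.21, adjusted p = 5.07e-08). Cav3 amounted to at most 0.0112 of the Cav1 FPKM in growth libraries, and to between 0.0903 and 3.24 times Cav1 in differentiated libraries, with a median of 0.672. In 4 of the 10 differentiated libraries Cav3 was above Cav1. Myof, the ferlin relative of Dysf that is active in myoblasts, had a difference of -0.33 ± 0.12 (adjusted p = 0.0173) and was not called. The Dysf to Myof ratio went from a median of 0.0118 to 0.209, and Myof stayed above Dysf in all 20 libraries.

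**Figure D2:**
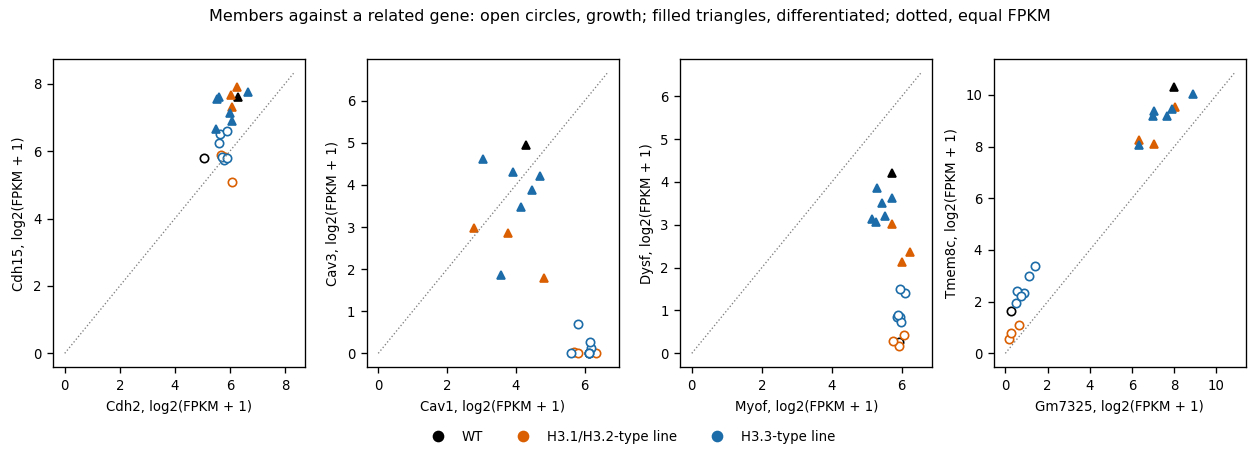
Each panel plots a gene (vertical axis) against a related gene (horizontal axis), both in log2(FPKM + 1), with 1 open circle per growth library and 1 filled triangle per differentiated library. Cdh15 moves above Cdh2, Cav3 moves up while Cav1 moves down, Dysf stays below Myof in all 20 libraries, and Tmem8c stays above Gm7325 in all 20.

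The sequences before the start of Cdh15, Cav3, Dysf and Cd9 are shown because the first 3 rose together and Cd9 did not. The 250 bases before a RefSeq start (build GRCm38.p6) were found for 5 of the 10 genes, in 6 windows, since Dysf has 2 starts. The other genes with no entry are Tmem8c, Cdh2, Ncam1, Adam12 and Jam3. The windows were searched for CANNTG, the E-box letters that MyoD and myogenin are known to bind and that read the same on both strands, and matches are in capitals. The windows shown, from RefSeq, lie at chr8:122848124-122848373 (Cdh15, plus strand), chr6:112459255-112459504 (Cav3, plus strand), chr6:84008348-84008597 (first start of Dysf, plus strand) and chr6:125494761-125495010 (Cd9, minus strand), each written 5′ to 3′ along its gene.
Cdh15: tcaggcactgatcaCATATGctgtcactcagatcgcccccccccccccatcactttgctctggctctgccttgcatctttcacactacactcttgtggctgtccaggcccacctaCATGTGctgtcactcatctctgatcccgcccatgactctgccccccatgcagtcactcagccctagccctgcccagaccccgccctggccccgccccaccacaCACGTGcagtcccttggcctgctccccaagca
Cav3: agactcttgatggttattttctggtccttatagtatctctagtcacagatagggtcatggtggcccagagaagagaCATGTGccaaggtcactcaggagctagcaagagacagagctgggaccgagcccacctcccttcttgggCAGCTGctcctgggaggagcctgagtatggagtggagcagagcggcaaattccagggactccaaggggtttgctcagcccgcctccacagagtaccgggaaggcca
Dysf: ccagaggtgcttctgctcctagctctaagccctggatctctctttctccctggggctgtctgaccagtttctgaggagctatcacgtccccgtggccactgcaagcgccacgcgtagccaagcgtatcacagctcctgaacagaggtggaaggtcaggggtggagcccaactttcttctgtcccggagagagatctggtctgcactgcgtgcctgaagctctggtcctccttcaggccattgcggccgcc
Cd9: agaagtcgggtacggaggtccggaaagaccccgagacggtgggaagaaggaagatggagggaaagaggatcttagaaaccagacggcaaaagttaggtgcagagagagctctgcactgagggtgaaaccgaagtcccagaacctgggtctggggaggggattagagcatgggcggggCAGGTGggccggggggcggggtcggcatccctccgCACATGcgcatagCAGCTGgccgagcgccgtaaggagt
The Cdh15 window held 3 matches and the Cav3 window 2, while neither Dysf window held any. The windows of the genes that were not called held 3 matches (Cd9) and 1 match (Dock1). Of the 32851 windows of that length, 66.2% held at least 1 match and 12.2% at least 3. The narrower CAGCTG, which is contained in CANNTG, was present once in the Cav3 window, beginning 106 bases before the start, and once in the Cd9 window, beginning 25 bases before it, and in 13% of all windows. A match is a description of the sequence and not of binding.

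The remaining genes were not called and had lower medians in differentiated cells. Adam12, a membrane metalloprotease with a disintegrin domain, had 0.882 (H3.1), 2.41 and 5.00 FPKM (H3t) in growth and 0.145 (H3mm11), 1.11 and 2.05 FPKM (H3mm12) in differentiated cells. It was lower in all 10 lines, with a difference of -0.92 ± 0.21 (adjusted p = 7.82e-04), just short of the size required for a call. Over 16 alternatives the difference ran from -1.56 to -0.78, with an adjusted p of 0.00367 or less. It was called in 4 of them, without H3.1 (-1.012) and without H3mm12 (-1.015), with 0.1 FPKM added in place of 1 (-1.56) and with quantile normalization (-1.05). Dock1, the exchange factor that activates Rac, varied little among growth libraries, with 8.80 (H3.3), 9.94 and 11.4 FPKM (H3mm11), and had 4.50 (H3mm7), 7.26 and 9.18 FPKM (H3.1) in differentiated cells. It too was lower in all 10 lines, by a small amount (-0.44 ± 0.09, adjusted p = 3.18e-04). Cd9, a tetraspanin of the cell surface, was the most abundant of the 10 genes in growth cells, with 285.9 (H3.1), 381.3 and 478.6 FPKM (WT). In differentiated cells it ranged from 108.2 (H3mm7) to 547.6 FPKM (H3t), with a median of 309.7, and was lower in 8 of 10 lines. The exceptions were H3.1 and H3t, with ratios of 1.40 and 1.56, and the difference over lines was -0.49 ± 0.23 (adjusted p = 0.0693). The adjusted p of Cd9 was below 0.05 in 3 of 17 alternatives, among them limma with the line as a block (0.046). Cd9 was called in 0 of the 17.

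**Figure D3:**
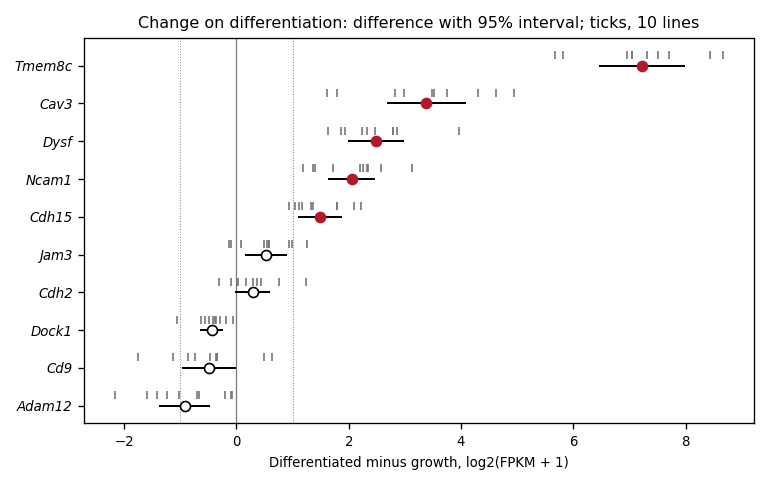
The difference between differentiated and growth cells in log2(FPKM + 1) is plotted for each gene as a circle with its 95% interval from limma, filled where the gene was called, with ticks above it for the 10 lines and dotted lines at -1 and 1. The 5 called genes range from 1.49 (Cdh15) to 7.22 (Tmem8c), and the 10 lines of Cd9, Jam3 and Cdh2 fall on both sides of 0.

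In the mm9 annotation each of the 5 genes that rose is a protein-coding gene. Tmem8c spans chr2:26917156-26927699 on the minus strand, Ncam1 chr9:49310257-49607027 on the minus strand and Cdh15 chr8:125371866-125391297 on the plus strand. Cav3 (chr6:112409495-112422865) and Dysf (chr6:83958584-84161054) are on the plus strand of the same chromosome. The annotation lists 7 transcripts of Ncam1 and 11 of Dysf, which the gene-level FPKM does not tell apart.

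Other genes of the same processes moved in both directions. Of 70 further genes in 5 lists, 69 were in the table and 59 had a mean of at least 1 FPKM. Of these, 9 were called higher and 7 lower, and their median difference was -0.027. Among fusogens and receptors, 2 of 6 tested genes rose, Gm7325 and the scavenger receptor Cd36 (1.86 ± 0.31), and none fell. Among adhesion molecules and catenins, 1 of 12 rose and 3 fell. The riser was F11r, which encodes JAM-A, with medians of 12.8 and 57.1 FPKM (2.10 ± 0.15). The genes that fell were Mcam (-2.16), Alcam (-1.73) and Jam2 (-1.18). None of 14 Rac and actin regulators was called, although Dock5, a relative of Dock1, came close (-0.98 ± 0.08, adjusted p = 1.97e-09), and 6 of them were lower and 1 higher by adjusted p alone.

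The list of caveolae and membrane repair divided most, with 5 of 17 genes called higher and 4 called lower. Trim72, which encodes the repair protein MG53, rose by 4.70 ± 0.41, from a median of 0.148 to 25.2 FPKM. The cavin genes Sdpr (2.46 ± 0.21) and Murc (2.17 ± 0.28) were called higher, while the other cavin genes of the list were not called, Ptrf at -0.89 ± 0.19 (lower in 10 of 10 lines) and Prkcdbp at -0.29 ± 0.13 (lower in 7 of 10). Cav1, Cav2 (-1.84 ± 0.18) and the annexin Anxa2 (-1.41 ± 0.14) fell. Among ADAM proteases and tetraspanins, only Adam19 of 10 genes was called (1.66 ± 0.16, higher), with a median of 10.2 FPKM in growth and 34.6 in differentiated cells, opposite in sign to Adam12.

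Differentiated lines differed from each other by more in some genes than in others. The highest differentiated library exceeded the lowest 14.1 times in Adam12, 12.1 times in Cav3, 5.15 times in Dysf, 5.06 times in Cd9 and 4.76 times in Tmem8c, but only 2.04 times in Dock1, 2.28 times in Cdh2 and 2.41 times in Cdh15. The lowest Adam12 library had 0.145 FPKM, so the Adam12 ratio rests on a value below 1 FPKM. WT was the highest differentiated library for Tmem8c, Ncam1, Cav3, Dysf and Jam3. Over all genes tested WT was the highest differentiated library for 22.5%. After median-ratio scaling WT was highest for the same 5 genes and for 19.6% of all genes. The part of its smaller sum of FPKM in these orders was not tested. H3mm12 ranked 2 in Tmem8c, Cdh15, Ncam1, Cav3 and Jam3 and 1 in Cdh2 and Adam12. It also had the highest Myog, 1151 FPKM, against 1023 in WT and 328.7 (H3t) at the lowest. H3t was the lowest library for Ncam1, Cav3 and Dysf, and H3mm11 was the lowest for Tmem8c, Cdh15, Cdh2, Adam12 and Jam3. Neighbours in these orders cannot be compared by a test, because each line had 1 differentiated library.

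H3.3, H3mm7 and H3mm11 were set apart from the other lines in the study by their profiles after differentiation, a grouping made on these same libraries, so their values are given as a description without a test. They were the 3 lowest of the 10 differentiated libraries for Cdh2, Adam12, Jam3 and Cd9. The same position was found for 7.88% of all genes, and the 3 highest places for 8.89%, which included none of the 10 genes. In Adam12 they had 0.433, 0.167 and 0.145 FPKM, in the order H3.3, H3mm7 and H3mm11, against 0.754 FPKM or more in the other 7. These Adam12 values were below 1 FPKM, where the unknown depth limits what can be said. In Cd9 they had 161.1, 108.2 and 171.5 FPKM, and the next line, H3mm12, had 281.7. In Jam3 they had 4.64, 5.79 and 4.46 FPKM, and the next line, H3mm16, had 7.66. In Cdh2 they had 48.1, 45.7 and 44.2 FPKM, and the next line, H3mm13, had 63.2. In growth cells none of the 10 genes had these lines in the lowest places, and Cav3 alone had them in the 3 highest, as did 1.86% of all genes, though not after quantile normalization. The 5 genes that rose did not have all 3 lines in the lowest places. From the highest down, H3.3 ranked 2 of 10 in Dysf and 4 in Cav3, and H3mm7 ranked 5 in Cav3, but H3mm11 ranked 10 in Tmem8c and Cdh15, 9 in Ncam1 and Cav3 and 7 in Dysf. In Ncam1 the lines H3.3, H3mm7 and H3mm11 ranked 6, 8 and 9. The same 4 genes had these lines lowest after median-ratio scaling and after quantile normalization. Myh3, the embryonic myosin, was lowest in the same lines, with 78.0, 54.9 and 60.7 FPKM against 95.6 or more in the others. Myog and Ckm did not have these lines lowest: Myog was lowest in H3t (328.7 FPKM) and H3.1 (333.2), below H3.3 (513.5) and H3mm7 (495.8), and Ckm was lowest in H3t (94.9). The part of the degree of differentiation in these values was not tested.

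**Figure D4:**
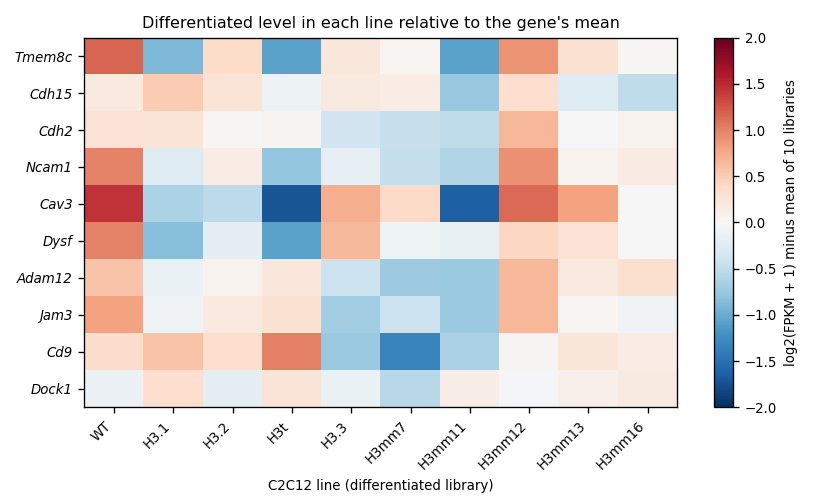
Colours give, for each gene (rows) and each line (columns), the differentiated level in log2(FPKM + 1) minus the mean of the 10 differentiated libraries. WT and H3mm12 are above the mean for most genes, H3.3, H3mm7 and H3mm11 are below it for Cdh2, Adam12, Jam3 and Cd9, and H3t is low for Tmem8c, Ncam1, Cav3 and Dysf.

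The 6 lines with H3.3-type histones were compared with the 3 lines with H3.1/H3.2-type histones, within each state. In differentiated cells none of the 10 genes was called, against 0.768% of the 10931 genes tested, and 3 of the 10 were below an unadjusted p of 0.05, as were 20.1% of all genes. By adjusted p alone 2.5% of all genes differed, and of the 10 genes Dysf did. Dysf had 4.15 (H3.1), 7.12 (H3.2) and 3.41 FPKM (H3t) in the H3.1/H3.2-type lines, and 7.42 (H3mm11) at the lowest, 9.30 at the median and 13.6 FPKM (H3.3) at the highest in the H3.3-type lines. The types did not overlap, and the difference was 0.89 ± 0.22 (adjusted p = 0.045). Differentiated WT cells, with 17.6 FPKM, lay above all lines of both types. Over all genes, 3.16% had higher values without overlap in the H3.3-type lines. The adjusted p of Dysf was 0.05 or more in 9 of 14 alternatives, among them those without H3t (0.71, adjusted p = 0.229), without H3.1 (0.82, adjusted p = 0.165) and with 0.1 FPKM added (adjusted p = 0.0932), and Dysf was called in 1, without H3.2 (1.15, adjusted p = 0.0113).

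Cd9 lay the other way in differentiated cells. It had 401.1 (H3.1), 342.4 (H3.2) and 547.6 FPKM (H3t) in the H3.1/H3.2-type lines, and from 108.2 (H3mm7) over a median of 226.6 to 320.4 FPKM (H3mm13) in the H3.3-type lines. The types did not overlap, as for 2.95% of all genes on that side, and the difference was -1.02 ± 0.28 (adjusted p = 0.0634). WT, with 345.5 FPKM, lay within the range of the H3.1/H3.2-type lines. Over 15 alternatives the adjusted p of Cd9 ranged from 0.0429, with quantile normalization (-1.23), to 0.291, without H3t (-0.83), and Cd9 was called in 3 of them, the others being without H3.2 and without H3mm12. Cav3 had 6.30, 6.87 and 2.46 FPKM in H3.1, H3.2 and H3t and 2.64 (H3mm11) to 23.6 FPKM (H3mm12) in the H3.3-type lines, which overlap through H3mm11 alone. In WT, Cav3 had 29.7 FPKM, above all lines of both types. The difference of Cav3 between the types was 1.18 ± 0.43 (adjusted p = 0.129). Over 15 alternatives it ran from 0.81 without H3t (adjusted p = 0.509) to 1.56 without H3mm11 (adjusted p = 0.0205), the only 1 in which Cav3 was called. The remaining 7 genes had differences between -0.36 (Cdh15) and 0.60 (Tmem8c), with adjusted p of 0.398 or more.

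In growth cells none of the 10 genes was called either, against 0.21% of all genes, and 2 of the 10, Tmem8c and Dysf, were below an unadjusted p of 0.05, as were 9.45% of all genes. These 2 had no overlap between the types, with the higher values in the H3.3-type lines, as did 5.95% of all genes. Tmem8c had 0.464 (H3.1), 1.13 (H3.2) and 0.710 FPKM (H3t) in the H3.1/H3.2-type lines and 2.86 (H3mm13), 4.14 and 9.47 FPKM (H3mm7) as the lowest, median and highest values of the H3.3-type lines. The difference was 1.74 ± 0.38 (adjusted p = 0.0841). WT growth cells, with 2.14 FPKM, lay between the types. Tmem8c was called in 2 of 15 alternatives, with 0.1 FPKM added in place of 1 (2.57, adjusted p = 0.0176) and without H3mm11 (1.78, adjusted p = 0.0455). In the other 13 the adjusted p was above 0.05, up to 0.305 without H3t, and the smallest difference was 1.55, with quantile normalization. Myog, the myogenic factor, had 0.106, 3.21 and 1.19 FPKM in H3.1, H3.2 and H3t and 7.35 to 23.1 FPKM in the H3.3-type growth libraries, also without overlap. Unlike Tmem8c, Myog was called between the types in growth (2.565 ± 0.448, adjusted p = 0.0245). Dysf had 0.347, 0.125 and 0.211 FPKM in H3.1, H3.2 and H3t and 0.647 to 1.83 FPKM in the H3.3-type lines, a difference of 0.74 ± 0.22 (adjusted p = 0.225). That difference depended on the scale, with 1.82 (adjusted p = 0.0222) when 0.1 FPKM was added and 0.44 (adjusted p = 0.58) with quantile normalization, and without H3t its adjusted p was 0.604. In WT growth cells Dysf had 0.193 FPKM, within the range of the H3.1/H3.2-type lines.

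Whether the change on differentiation itself differed between the types was tested as an interaction. None of the 10 genes and 0.0% of all genes were called by limma, with 999 of 10931 genes, or 9.14%, and 3 of the 10 below an unadjusted p of 0.05. With the line as a block, which keeps the pairing, 3 genes were called, none of them among the 10. In that fit 16.2% of all genes were below an unadjusted p of 0.05. In both fits the same 3 of the 10 were below it. Without the block they were Cd9 (-1.13 ± 0.40, adjusted p = 0.455), Cdh15 (-0.88 ± 0.38, adjusted p = 0.512) and Tmem8c (-1.15 ± 0.54, adjusted p = 0.544). A negative value is a smaller rise or a larger fall in the H3.3-type lines. With the block, the adjusted p was 0.174 for Cd9 (SE 0.33), 0.105 for Cdh15 (SE 0.14) and 0.242 for Tmem8c (SE 0.43). For Cd9, 2 of 3 H3.1/H3.2-type lines were higher after differentiation and 0 of 6 H3.3-type lines were. For the other genes the 95% intervals held 0, and that of Cav3 reached from -0.26 to 2.29, and a p above the threshold does not show that the types changed alike.

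**Figure D5:**
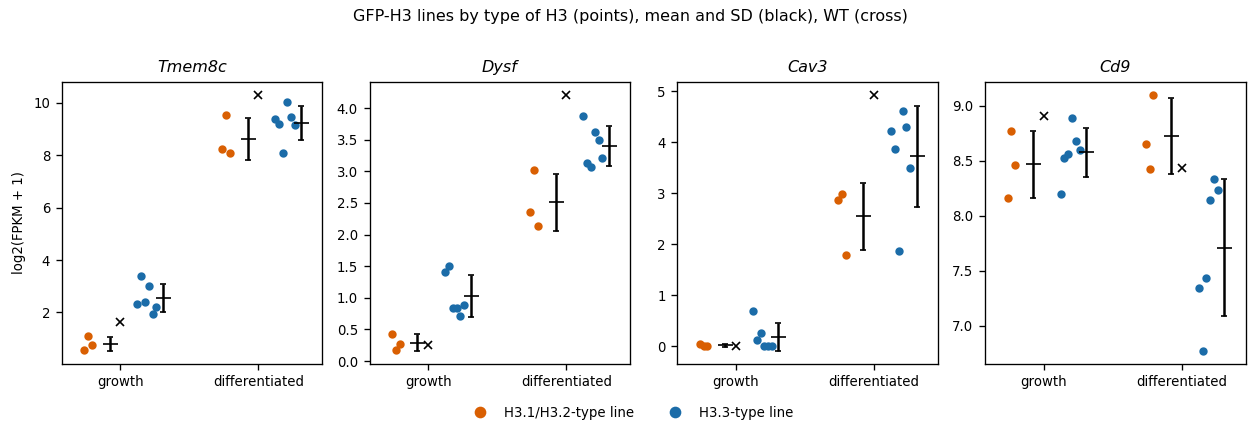
Points are single libraries in log2(FPKM + 1), H3.1/H3.2-type lines in orange (n = 3) and H3.3-type lines in blue (n = 6), with the mean and SD in black and WT as a cross, in growth and differentiated cells. The vertical axes of the panels start at different values; the types do not overlap for Tmem8c in growth cells, for Dysf in both states and for Cd9 in differentiated cells.

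The genes most like each of the 10 were sought by Pearson's r of log2(FPKM + 1) over the 20 libraries. The libraries form 2 clusters, growth and differentiated, so a high r can come from the change on differentiation alone, and the values are descriptions. Tmem8c was closest to Chrng, which encodes a subunit of the embryonic acetylcholine receptor (r = 0.997), then to Mylpf and Tnni2, which encode proteins of the fast muscle sarcomere. Ncam1 was closest to Hrc, Atp2a1 and Ppfia4 (r of 0.986 to 0.987), and Cav3 to Cacna1s, the calcium channel of the transverse tubule (r = 0.978), Prkag3 and Klhl40. Dysf was closest to Pard3, Cacnb1 and Fam53b, and Cdh15 to Dok7, an activator of the receptor kinase MuSK (r = 0.957), Tyk2 and Dyrk1b. The genes that were not called had closest partners with lower r: Jam3 with Pkia (0.936), Cd9 with 5430435G22Rik (0.925), Dock1 with Ptpn9 (0.925), Cdh2 with Map3k14 (0.872) and Adam12 with Exoc8 (0.867).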

How the data were processed

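mRNA-Seq of 10 C2C12 lines in growth and differentiation was used. The deposited values are FPKM, which the authors estimated with cuffdiff of Cufflinks 2.0.1 after alignment to mm9 by TopHat2 2.0.8. The submitters' processing notes list these tools for all 20 libraries, while the paper's methods name them for the GFP-H3 lines only. FPKM is scaled per length and library, read numbers are unknown, and so no counting interval was given. The deposited 3′-seq tables hold histone genes only and were not used, and ChIP-seq was not analysed here. Sequences before gene starts came from RefSeq.

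Genes with a mean of at least 1 FPKM were tested on log2(FPKM + 1) with limma 3.58.1 (trend and robust settings, R 4.3.3), across all genes with Benjamini-Hochberg adjustment. A call needed both an adjusted p under 0.05 and an absolute difference of 1 or more. All 10 genes passed the filter. Growth was compared with differentiation over 20 libraries (10 against 10), and H3.3-type with H3.1/H3.2-type lines, with the interaction, over the 18 GFP-H3 libraries. The p-values measure the spread between lines. The type tests took 1 estimate of the spread from both states and treated the libraries of a line as independent. Within a state each line occurs once, so a block by line could not be fitted there. Growth and differentiated libraries of a line are paired by the cell line. Deviations from the group means correlated within a line with r of 0.877 in WT and 0.273 to 0.475 in the GFP-H3 lines. For 10 of 10 lines, r was highest with the library of the same line. The fit with the line as a block was an alternative. The script was tested on simulated data with independent libraries, which leaves out the pairing by line. Other alternatives covered the pseudocount, low-value filters, normalization, the limma settings and leaving out each line. Named were the 10 genes, up to 3 called genes in each direction per further list, the 3 genes most like each of the 10, reference markers and relatives. Dock5 was named after its values were seen. The genes and lists were chosen with earlier results of these data known. Software was Python 3.11.15 with pandas 2.3.3, numpy 2.4.6 and, for plots, matplotlib 3.10.9.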

Additional observations from a re-analysis of the deposited data

Results flagged for a closer look

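Among 40 sets of lines examined for a value far from the rest, 3 were found. Chance gives about 1 in 20 sets where values are normally distributed. The sets overlap, and the same Cav3 value was found in more than 1 of them, so the finds are not independent. Cav3 was listed at 0 in 6 of the 10 growth libraries, so that rate does not hold for it. Cdh2 in growth cells was low in WT (32.2 FPKM, against 47.2 FPKM or more in the GFP-H3 lines). On the log2(FPKM + 1) scale, on which all sets were examined, the gap to its neighbour was 0.533 of the range of the 10 lines. Cav3 in growth cells was high in the H3.3 line (0.619 FPKM, against at most 0.197 in the others). Its gap on the same log2 scale was 0.627 of the range among the 10 lines and likewise 0.627 among the 6 H3.3-type lines. All of these Cav3 values were below 1 FPKM.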

How the results depend on the processing

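The calls of Tmem8c, Cdh15, Ncam1 and Cav3 on differentiation held in all 17 alternatives and that of Dysf in the 16 in which it was tested; Dysf and Adam12 do not reach a mean of 5 FPKM. With adjusted p alone 3336 genes were higher, 3083 lower, and 8 of the 10 genes passed. With the line as a replicate block 5 of the 10 genes were called, and no call among the 10 changed in either fit, the interaction included. Between types in differentiated cells, 84 called genes became 134 with 0.1 FPKM added, 39 without a filter, 47 with a mean of at least 5 FPKM, 273 by adjusted p alone, and 3 (without H3.1) to 293 (without H3.2) with a line left out, so these counts rest on single lines. Of the 10 genes, 1 was then called with quantile normalization (Cd9), 1 by adjusted p alone (Dysf) and 0 to 2 with a line left out. In growth cells 2 of the 10 were called with 0.1 FPKM added and 0 to 1 with a line left out. Directions turned only for differences that had not passed and lay between -0.089 (Cdh2, types in growth) and 0.214 (Adam12, types in growth) before the change of setting. Jam3 between types in growth was 0.013 with median-ratio scaling. Dysf in the interaction went from 0.153 to -0.80 with 0.1 FPKM added, which is not near 0. With a line left out, the differences in growth ranged from -0.182 to 0.018 (Cdh2), -0.20 to 0.637 (Adam12), -0.122 to 0.158 (Jam3), -0.042 to 0.26 (Cd9) and -0.007 to 0.062 (Dock1), and in the interaction from -0.356 to 0.126 (Ncam1) and -0.023 to 0.47 (Dysf). The cause was not tested. Scalings moved the median of all genes by less than 0.1. The counts of lines in the lowest places and of WT in the highest place were repeated under both scalings, an alternative chosen after seeing the data. WT was then highest in 5 genes, or in 6 with quantile normalization, which added Cdh15. The unknown depth limits what can be said of values below 1 FPKM.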
